A study of Macaca mulatta with 4 samples.

Results

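Chromosomes 12 and 13 of the rhesus macaque (Macaca mulatta) together correspond to human chromosome 2, and their open chromatin was described here side by side in embryos with a genome from 1 parent only. The members are all DNase hotspots on these 2 chromosomes in the 4 lists of the study, 26159 of 328084 hotspots (7.97%), and the 18359 regions left after hotspots of all lists were merged, of 222970 in all. They were chosen by chromosome alone, with no measured value involved. Human chromosome 2 arose when 2 ancestral chromosomes joined end to end, and macaques keep both as separate chromosomes. The label was checked by gene names in the RefSeq annotation of another macaque assembly, T2T-MMU8v2.0, from which no position was used. All 10 of the listed genes of the human short arm, among them MYCN, POMC and DNMT3A, and all 3 of the listed long-arm genes on its side of the joining site, PAX8, IL1B and MERTK, were assigned to chromosome 13. All 17 of the remaining long-arm genes, among them HOXD13, TTN and FN1, were assigned to chromosome 12.

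DNase-seq was carried out on 2 libraries of androgenetic (AG) morulae, whose nuclear genome comes from sperm only, and 2 libraries of gynogenetic (GG) morulae, whose nuclear genome comes from the oocyte only. The morula is the compact ball of cells before the blastocyst, and the digestion was the same for all 4 libraries (DNase I at 40 U/ml, 37 °C, 5 min). Strain, donor animals, embryos per library and whether replicates came from separate embryos are not given in the labels, so the spread between replicates may be technical. Whatever else differs between the making of AG and GG embryos cannot be told apart from parental origin. Hotspots carried no gene names here, so the labelled stage was not checked against marker genes.

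DNase I cuts DNA more readily where nucleosomes are displaced, as at active promoters and enhancers, and a hotspot is a stretch with more cuts than its surroundings. In the morula the embryonic genome has become active, and AG and GG embryos allow the sperm-derived and oocyte-derived copies of a chromosome to be read separately. The lists give each hotspot's position and a score but no read counts, so depth is unknown. The AG lists held 64730 hotspots (replicate 1) and 85318 (replicate 2), and the GG lists 93171 (replicate 1) and 84865 (replicate 2). Positions refer to the rheMac8 build and are counted from 1. The length of a chromosome was taken as the end of its last hotspot in any list, 108.9 Mb for chromosome 13 and 125.5 Mb for chromosome 12.

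The first question was how many hotspots each chromosome carried. Chromosome 13 had 2696 and 3104 hotspots in the AG replicates, against 4300 and 2825 in the GG replicates. Chromosome 12 had 2346 and 3579 in the AG replicates, against 3618 and 3691 in the GG replicates. The groups overlapped on chromosome 13, while on chromosome 12 both GG libraries lay above both AG libraries, AG replicate 2 only just below. Means were 2900 ± 289 in AG and 3563 ± 1043 in GG for chromosome 13, and 2963 ± 872 in AG and 3655 ± 51.6 in GG for chromosome 12 (SD, n = 2 libraries each). The exact permutation p, two-sided, was 0.667 for chromosome 13 and 0.333 for chromosome 12, with 0.333 as the lower limit of p for groups of 2. On chromosome 12 the AG minus GG difference of -692 hotspots rested on AG replicate 1, without which it was -75.5 (-1309 without AG replicate 2). On chromosome 13 the difference of -662.5 became 75 without GG replicate 1, -1400 without GG replicate 2 and -458.5 without AG replicate 1. The SD of GG on chromosome 13 and that of AG on chromosome 12 were thus larger than the differences between the groups.

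To set aside the unequal length of the lists, each chromosome's share of the covered bp of its library was taken. Chromosome 13 took 4.16% and 3.52% in the AG replicates, against 4.74% and 3.48% in the GG replicates. Chromosome 12 took 3.49% and 3.98% in the AG replicates, against 3.86% and 4.29% in the GG replicates. AG and GG overlapped on both chromosomes, with means of 3.84 ± 0.451% in AG and 4.11 ± 0.890% in GG for chromosome 13, and of 3.73 ± 0.343% and 4.07 ± 0.300% for chromosome 12 (SD, n = 2 each). The two-sided exact permutation p was 1.00 for chromosome 13 and 0.667 for chromosome 12. In size, the difference between groups was below both SDs on chromosome 13. On chromosome 12 the difference was above the SD of GG and just below that of AG. That of chromosome 13, -0.269 percentage points, turned to 0.05 without AG replicate 2 and to 0.360 without GG replicate 1, and was -0.587 without AG replicate 1 and -0.898 without GG replicate 2. That of chromosome 12, -0.339, was -0.0970 without AG replicate 1, -0.582 without AG replicate 2, -0.552 without GG replicate 1 and -0.127 without GG replicate 2.

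**Figure D1:**
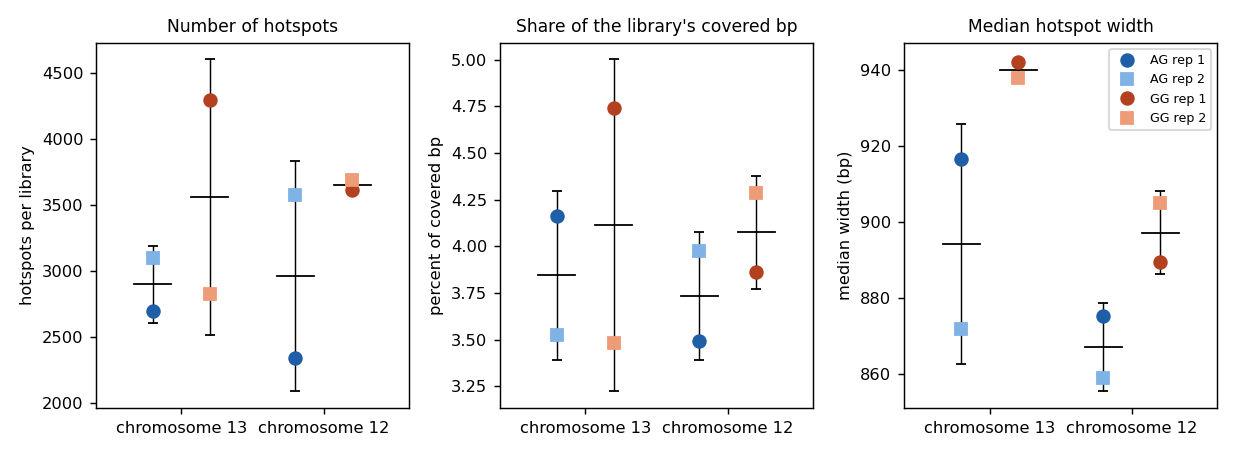
Number of hotspots, share of the library's covered bp in percent and median hotspot width in bp for chromosomes 13 and 12 (vertical axes do not start at 0). Circles are replicate 1, squares replicate 2, blue AG and red GG, with horizontal lines at group means and bars of 1 SD (n = 2). Shares of chromosome 13 were 4.16% and 4.74% in the replicates numbered 1, above the 3.52% and 3.48% of those numbered 2, while chromosome 12 ran the other way in both groups.

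In covered bp, the 2 chromosomes changed places between replicates. Covered bp on chromosome 13 was 1.19 times that on chromosome 12 in AG replicate 1 and 0.886 times in AG replicate 2, against 1.23 times in GG replicate 1 and 0.813 times in GG replicate 2. The order by covered bp was therefore reversed between the replicates of each group, and in the same sense in AG and GG. In the higher-scoring 50% of each list these ratios were 1.20 and 0.892 in the AG replicates and 1.18 and 0.907 in the GG replicates. Relative to length, chromosome 13 was covered more in 3 of 4 libraries, so within AG the order did not reverse. Its covered part was 2.59% and 2.73% in the AG replicates, against 1.89% and 2.67% on chromosome 12. In the GG replicates it was 4.45% and 2.98%, against 3.14% and 3.18% on chromosome 12. The mean log2 ratio of covered bp over the 4 libraries was 0.02 ± 0.30 (SD, n = 4), with 2 of 4 libraries above 0 (two-sided exact sign-flip permutation p = 1.00). It turned negative without AG replicate 1 (-0.06) or GG replicate 1 (-0.07), and was 0.08 without AG replicate 2 and 0.13 without GG replicate 2. The ratio differed between AG and GG by 0.04 on the log2 scale (exact permutation p = 1.00), with -0.17 without AG replicate 1, -0.26 without GG replicate 2, 0.25 without AG replicate 2 and 0.34 without GG replicate 1, so the chromosomes were not shown to differ in their AG against GG difference.

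Against the other autosomes, the swing of chromosome 13 between replicates was large. Its share in replicate 1 over replicate 2 was 1.18 in AG (log2 0.24) and 1.36 in GG (log2 0.44). The 18 other autosomes ranged from log2 -0.48 to 0.22 in AG and from -0.47 to 0.49 in GG. Chromosome 13 thus lay above all of them in AG and below 1 of them in GG. By absolute size it ranked 4 of 20 autosomes in AG and 3 in GG. Chromosome 12 had ratios of 0.878 in AG (log2 -0.19) and 0.901 in GG (log2 -0.15), ranking 8 in both groups. Replicates share no order beyond their number, and 8 of 20 autosomes moved the same way in AG and GG.

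**Figure D2:**
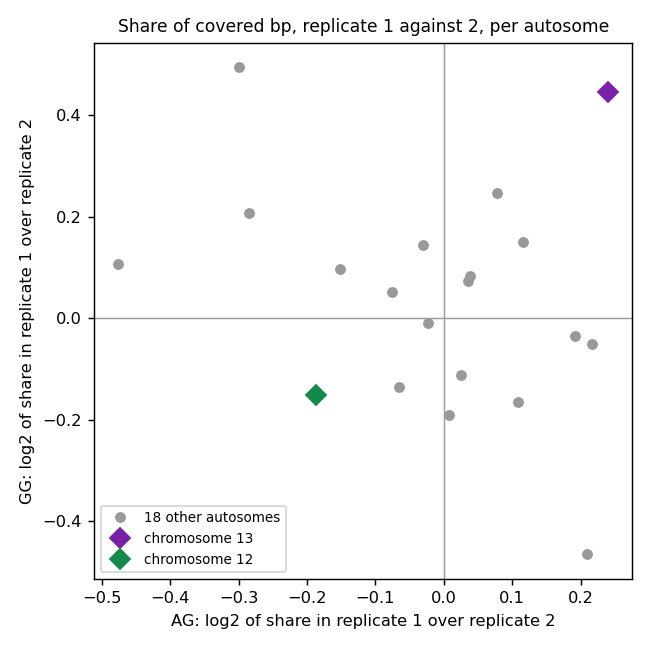
Log2 of the share of covered bp in replicate 1 over replicate 2, in AG on the horizontal and in GG on the vertical axis, with 1 point for each of 20 autosomes. Chromosome 13 lies at 0.24 and 0.44, at the upper right, and chromosome 12 at -0.19 and -0.15, at the lower left. The points depend on each other, since a gain of 1 autosome lowers the share of the rest.

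The swing of chromosome 13 was present in every section of its length. In sections of 10 Mb, its share was higher in AG replicate 1 than in AG replicate 2 in 11 of 11 sections, by 1.02 to 1.41 times, and higher in GG replicate 1 than in GG replicate 2 in 11 of 11, by 1.22 to 1.62 times. Chromosome 12 had AG replicate 1 above AG replicate 2 in 3 of 13 sections and GG replicate 1 above GG replicate 2 in 1 of 13. In windows of 1 Mb, AG replicate 1 lay above AG replicate 2 in 77 of 109 windows of chromosome 13 (70.6%) and 37 of 126 of chromosome 12 (29.4%), against 44.7% of all 2682 windows. In GG, replicate 1 lay above replicate 2 in 104 windows of chromosome 13 (95.4%) and 36 of chromosome 12 (28.6%), against 50.1% of all windows. Of 20 autosomes, chromosome 13 had the highest such share in both groups. What produced the swing was not tested.

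Hotspots were somewhat wider on chromosome 13. Median widths on chromosome 13 were 916.5 and 872 bp in the AG replicates, against 942 and 938 bp in the GG replicates. On chromosome 12 they were 875.5 and 859 bp in the AG replicates, against 889.5 and 905 bp in the GG replicates. The difference, chromosome 13 minus chromosome 12, was positive in 4 of 4 libraries with a mean of 34.9 ± 16.6 bp (SD, n = 4). The exact sign-flip permutation p was 0.125, two-sided, the smallest that 4 libraries can give, and the difference was 10 bp in the higher-scoring 50% of each list. Among 20 autosomes chromosome 13 ranked 7 and chromosome 12 ranked 17 by the mean of the 4 medians, 917 ± 32.1 and 882 ± 19.6 bp, inside the range of 830 to 1003 bp of the other autosomes. Spacing differed too, in that the median gap between neighbouring hotspots was shorter on chromosome 13 in 4 of 4 libraries, by a mean of 1.78 kb (exact sign-flip p = 0.125). Over 10 such comparisons of the chromosomes, the smallest Benjamini-Hochberg adjusted p was 0.3125.

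Within each chromosome, both GG libraries had higher median widths than both AG libraries and larger shares of hotspots of 2000 bp or more. On chromosome 13 such wide hotspots made up 8.98% and 5.86% of hotspots in the AG replicates, against 11.8% and 12.3% in the GG replicates. On chromosome 12 they made up 8.06% and 5.56% in the AG replicates, against 10.8% and 10.5% in the GG replicates. Both GG libraries lay above both AG libraries on each chromosome, and AG replicate 2 was the lowest on both. These wide hotspots held 22.5% and 15.7% of covered bp of chromosome 13 in the AG replicates, against 29.8% and 30.7% in the GG replicates. The AG minus GG difference in median width was -45.8 bp on chromosome 13 (-23.5 without AG replicate 2) and -30.0 bp on chromosome 12, each with an exact permutation p of 0.333. In lists shortened to the number of hotspots of the shortest list it was -107 bp on chromosome 13 and -121 bp on chromosome 12. Shortening left the list of AG replicate 1 whole and dropped the lowest-scoring hotspots of the others. What this alone does to median widths was not tested. On the rest of the autosomes wide hotspots made up 8.96% and 6.78% in the AG replicates, against 11.1% and 10.6% in the GG replicates, so both GG libraries lay above both AG libraries there too. Median widths on the rest of the autosomes were 905 and 892 bp in the AG replicates, against 903 and 920 bp in the GG replicates, and the groups overlapped. Of 20 AG against GG comparisons on the 2 chromosomes (10 measures each), 12 had groups that did not overlap. Each of those had an exact permutation p of 0.333, the lower limit for groups of 2, and the smallest adjusted p was 0.556. Several measures follow from each other, such as the number of hotspots and the number per Mb. The same count was not made for the other autosomes, so the 12 do not mark these chromosomes out.

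Sharing between libraries was the next question. Merging left 8882 regions on chromosome 13 and 9477 on chromosome 12. Of those on chromosome 13, 6653 (74.9%) came from a single list, 1268 (14.3%) from 2 lists, 474 (5.34%) from 3 lists and 487 (5.48%) from all 4. On chromosome 12 the numbers were 7411 (78.2%), 1183 (12.5%), 462 (4.87%) and 421 (4.44%). The other autosomes had 74.8% in 1 library and 5.99% in all 4. By the share in all 4 libraries chromosome 13 ranked 11 and chromosome 12 ranked 16 of 20 autosomes. Per Mb, chromosome 13 had 4.47 regions in all 4 libraries and chromosome 12 had 3.35, against 5.02 on the other autosomes.

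**Figure D3:**
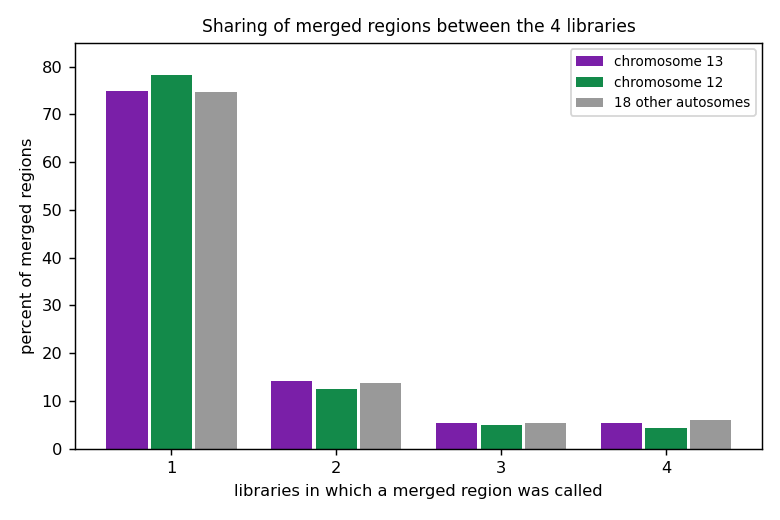
Percent of merged regions called in 1, 2, 3 or all 4 libraries, for chromosome 13, chromosome 12 and the 18 other autosomes. Chromosome 12 had the largest part called in 1 library (78.2%) and the smallest in all 4 (4.44%).

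Regions found more often were also wider, which a merged region gains in part by joining hotspots of several lists. Median widths on chromosome 13 were 768 bp for regions in 1 library, 1332 bp in 2, 1916 bp in 3 and 3030 bp in all 4. On chromosome 12 they were 746, 1294, 2002 and 3073 bp. Single lists, where no merging enters, showed the same dependence on width. On chromosome 13, 82.6% and 76.4% of hotspots of at least 2000 bp in AG replicates 1 and 2 overlapped a hotspot of the other AG library, and 87.8% and 93.9% of those in the GG replicates did so for GG. Of hotspots under 500 bp, 8.45% and 7.21% did so in AG and 5.79% and 13.7% in GG. On chromosome 12 the shares for hotspots of at least 2000 bp were 79.9% and 74.4% in AG and 90.3% and 91.0% in GG. Wider stretches overlap more readily for their length alone, and this was not separated here.

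Pairs of libraries were compared by the Jaccard index, the bp shared by 2 lists over the bp in either. On chromosome 13 the AG pair had 0.155, the GG pair 0.243 and mixed pairs, AG against GG, 0.124 to 0.172. On chromosome 12 the AG pair had 0.140, the GG pair 0.231 and mixed pairs 0.121 to 0.151. On both chromosomes the GG pair had the highest index, while mixed pairs reached indices on either side of the AG pair. The other autosomes had the same order, with 0.170 for the AG pair, 0.248 for the GG pair and 0.145 to 0.174 for mixed pairs. Within GG, 31.9% of hotspots of replicate 1 and 49.1% of replicate 2 were found again in the other on chromosome 13, where replicate 1 had many more hotspots, and 36.8% and 36.4% on chromosome 12. Among 20 autosomes, chromosome 13 ranked 12 by index within AG and 11 within GG, and chromosome 12 ranked 16 and 14.

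Regions called in both libraries of 1 group and in neither of the other were then counted. Chromosome 13 had 181 AG-only regions (2.04% of its regions, against 2.12% of all regions) and 497 GG-only regions (5.60%, against 5.48%). Chromosome 12 had 166 AG-only regions (1.75%) and 511 GG-only regions (5.39%). These shares were near those of all regions, so neither chromosome stood out. GG-only regions were 2.75 times as many as AG-only regions on chromosome 13 and 3.08 times on chromosome 12, ranking 10 and 7 of 20 autosomes. Lists shortened to equal covered length were an alternative chosen after the data were seen. They gave 194 AG-only and 262 GG-only regions on chromosome 13, and 184 and 239 on chromosome 12. The higher-scoring 50% of each list gave 98 and 316 on chromosome 13, and 77 and 298 on chromosome 12. Lists of equal number gave 178 and 372, and 167 and 355. As a ratio, the excess of GG-only regions was thus larger in the higher-scoring 50% and smaller at equal number or covered length. Regions called in GG replicate 1 alone numbered 2404 on chromosome 13 (27.1% of its regions) and 1911 on chromosome 12 (20.2%). Those in GG replicate 2 alone numbered 1143 (12.9%) and 2008 (21.2%). On the other autosomes 20.8% of regions were called in GG replicate 1 alone and 18.1% in GG replicate 2 alone.

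Group-only regions of chromosome 13 lay nearer to shared open chromatin than those of chromosome 12. The median distance to the nearest region called in all 4 libraries was 51.7 kb for AG-only and 51.1 kb for GG-only regions on chromosome 13, and 62.0 and 97.8 kb on chromosome 12. Regions of 1 library lay 91.3 kb away on chromosome 13 and 120 kb on chromosome 12. Chromosome 13 also has more regions in all 4 libraries per Mb, which shortens such distances, and no test was made.

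The highest scores of the 2 chromosomes were those of neighbouring regions on chromosome 12. Scores were given by the authors and rank hotspots inside 1 list only. On chromosome 12 the 3 regions in all 4 libraries with the highest lowest score lay next to each other within 8.996 kb, from 94708924 to 94717919. The first, at chr12:94708924-94712049, had scores of 761 and 1150 in the AG replicates, against 935 and 890 in the GG replicates, which was the 2nd or 3rd highest score of each whole list. The next, at chr12:94714174-94717919, had scores of 521 and 899 in AG and 760 and 641 in GG, between 4th and 6th of each list. The last, at chr12:94712484-94713818, lies between them and had scores of 97.4 and 92.5 in AG and 115 and 103 in GG. Hotspots of this span took 0.188 to 0.335% of the covered bp of chromosome 12 in a library, so they barely bear on its share.

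No region of chromosome 13 scored as high as those from 94708924 and 94714174. Its first, at chr13:82886629-82887593, had scores of 123 and 316 in the AG replicates, against 196 and 195 in the GG replicates. It was followed by chr13:103564928-103567650 (lowest score 46.9) and chr13:91386659-91387603 (lowest score 37.5). The widest regions in all 4 libraries were chr13:27499577-27513484 (13908 bp) and chr13:92006023-92016832 (10810 bp), and on chromosome 12 chr12:48793656-48808382 (14727 bp) and chr12:59450004-59463696 (13693 bp). At chr13:27499577-27513484, hotspots covered 8090 and 10888 bp in the AG replicates, against 12979 and 8356 bp in the GG replicates, so AG and GG overlapped at this widest region of chromosome 13.

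One high-scoring region, picked after its values were seen, differed between AG and GG in extent. At chr12:49804536-49806448 the hotspot spanned 1796 and 1913 bp in the AG replicates, with scores of 520 and 293. In the GG replicates it spanned 105 and 161 bp, with scores of 96.7 and 82.2. By contrast, chr12:78104423-78106684 spanned 1289 and 1553 bp in the AG replicates (scores 71.3 and 214), against 1671 and 2262 bp in the GG replicates (scores 164 and 155). The GG hotspots were thus shorter than the AG hotspots in the region from 49804536 and longer in that from 78104423.

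Among AG-only and GG-only regions, called in both libraries of their group, scores were far lower. A region called in AG replicate 2 alone, chr13:104257840-104258048 (209 bp), scored 103 there. The strongest AG-only region of chromosome 12, at chr12:78412456-78413775, had scores of 19.2 and 24.2 in the AG replicates, and that of chromosome 13, at chr13:62888420-62892202, had 16.2 and 11.1. Next on chromosome 13 came chr13:62434115-62435856 (weaker score 9.99) and chr13:101176122-101177345 (9.90), and on chromosome 12 chr12:113119489-113120446 (11.2) and chr12:104910951-104914037 (10.2). The strongest GG-only region was chr12:103501735-103502899 on chromosome 12, with 16.5 and 22.1 in the GG replicates, though only 271 bp of it were called in GG replicate 1. On chromosome 13 it was chr13:44846560-44850791, with 16.0 and 14.5.

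Others of the GG-only regions stood out by width. On chromosome 12, chr12:97271545-97277843 had 6147 and 4408 bp covered in GG replicates 1 and 2 (scores 16.0 and 11.4) and none in AG. On chromosome 13, chr13:69730760-69735809 had 4246 and 4947 bp covered in GG. The AG-only regions with the most bp covered in both AG libraries were chr13:90001253-90006869 (4928 and 3123 bp) and chr12:9695217-9698339 (2784 and 2597 bp). Further GG-only regions named by score were chr13:70488913-70491534 (weaker score 12.7), chr13:24697319-24698463 (11.9) and chr12:64387613-64388536 (11.7).

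Along the chromosomes, hotspots were unevenly spread. The most covered section of chromosome 13 ran from 20 to 30 Mb, with 4.43% of its bp covered on average over libraries, and the least covered was the first 10 Mb with 1.83%. On chromosome 12 the section from 80 to 90 Mb led with 4.05%, and that from 10 to 20 Mb was lowest with 1.84%. The longest stretch with no hotspot in any list was 229 kb on chromosome 13, from 52335496 to 52564099, and 321 kb on chromosome 12, from 15099436 to 15420562. The most covered 1 Mb windows of chromosome 13 began at 75000001 (102 and 88.8 kb in the AG replicates, against 119 and 107 kb in the GG replicates) and at 27000001 (82.5 and 93.0 kb in AG, 131 and 109 kb in GG). Those of chromosome 12 began at 82000001 (68.6 and 75.3 kb in AG, 94.9 and 95.8 kb in GG) and at 100000001 (66.0 and 71.6 kb in AG, 99.95 and 92.8 kb in GG). Relative to each library's mean window, AG minus GG differences of these windows ran from -0.13 to 0.12 on the log2 scale.

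The least covered windows of chromosome 13 varied widely between replicates. On chromosome 13 the least covered windows began at 52000001 (3.17 and 2.27 kb in AG, 4.86 and 0.588 kb in GG) and at 78000001 (1.20 and 4.51 kb in AG, 11.3 and 0.604 kb in GG). The GG replicates differed most in these. On chromosome 12 they began at 5000001 (3.64 and 6.59 kb in AG, 1.19 and 1.68 kb in GG) and at 14000001 (1.65 and 5.72 kb in AG, 2.33 and 2.87 kb in GG).

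**Figure D4:**
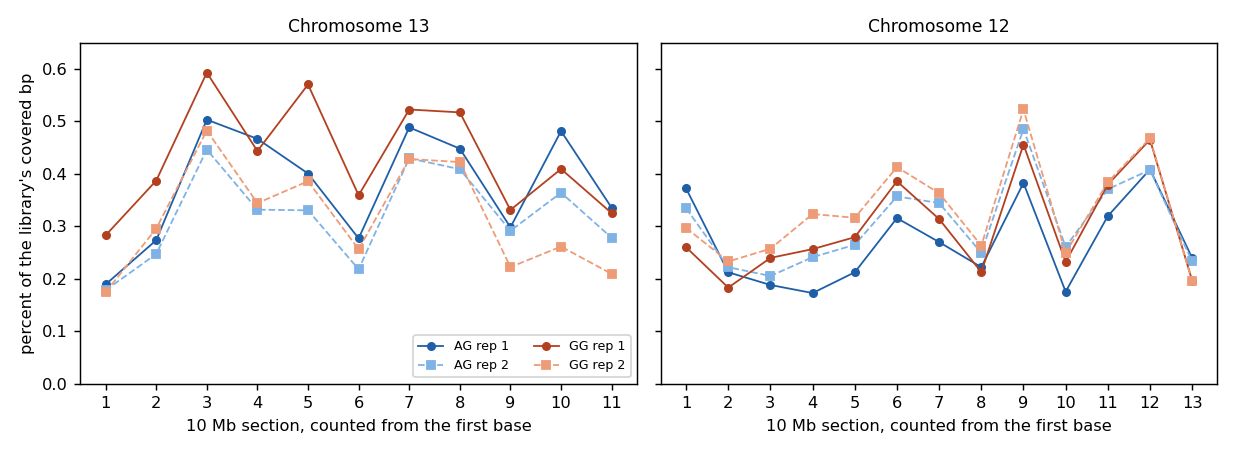
Percent of each library's covered bp in consecutive 10 Mb sections of chromosome 13 (left) and chromosome 12 (right), counted from the first base. The last sections are shorter (8.91 and 5.49 Mb). Replicate 1 (solid) lies above replicate 2 (dashed) of its group in all 11 sections of chromosome 13, and on chromosome 12 both AG libraries lie above both GG libraries in the first and last sections.

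The groups were then compared section by section. On chromosome 12, both AG libraries had a larger share than both GG libraries in 2 of 13 sections, against 23.4% of all autosomal sections, and both GG libraries a larger share in 6, against 33.1%. The 2 higher in AG were the first and last sections, and the 6 higher in GG lay between them. In the first 10 Mb the share was 0.372 and 0.334% in the AG replicates, against 0.260 and 0.297% in the GG replicates, 1.27 times higher in AG. From 120 Mb to the end it was 0.240 and 0.233% in the AG replicates, against 0.197 and 0.195% in the GG replicates. From 30 to 40 Mb it was 0.173 and 0.241% in the AG replicates, against 0.257 and 0.323% in the GG replicates, 1.40 times higher in GG. On chromosome 13 only the section from 10 to 20 Mb separated the groups, with 0.274 and 0.247% in the AG replicates against 0.387 and 0.296% in the GG replicates.

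Windows of 1 Mb were then tested with limma in 1 fit over 2682 windows of all chromosomes, those with a mean of 2000 covered bp or more. Values were log2 of covered bp plus 1000, relative to the library's mean window, so differences of sparse windows are understated. At a Benjamini-Hochberg adjusted p of 0.05 limma called 0 of 109 windows of chromosome 13 and 0 of 126 of chromosome 12, against 0% of all windows. At an unadjusted p under 0.05, chromosome 13 had 0 windows higher in AG (6.67% of all windows) and 13 higher in GG (11.9%, against 11.3%). Chromosome 12 had 8 higher in AG (6.35%) and 18 higher in GG (14.3%). Both AG libraries lay above both GG libraries in 17 windows of chromosome 13 (15.6%, against 24.1% of all windows) and 20 of chromosome 12 (15.9%), and both GG above both AG in 27 (24.8%, against 28.9%) and 40 (31.7%). More than 2-fold differences were higher in AG in 1 window of chromosome 13 and 4 of chromosome 12 (2.65% of all windows), and higher in GG in 7 and 13 (8.72%). Counts on both chromosomes depended on single libraries, and so did the number over all windows. Leaving a library out leaves a single library in its group, so counts of such fits are not given.

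**Figure D5:**
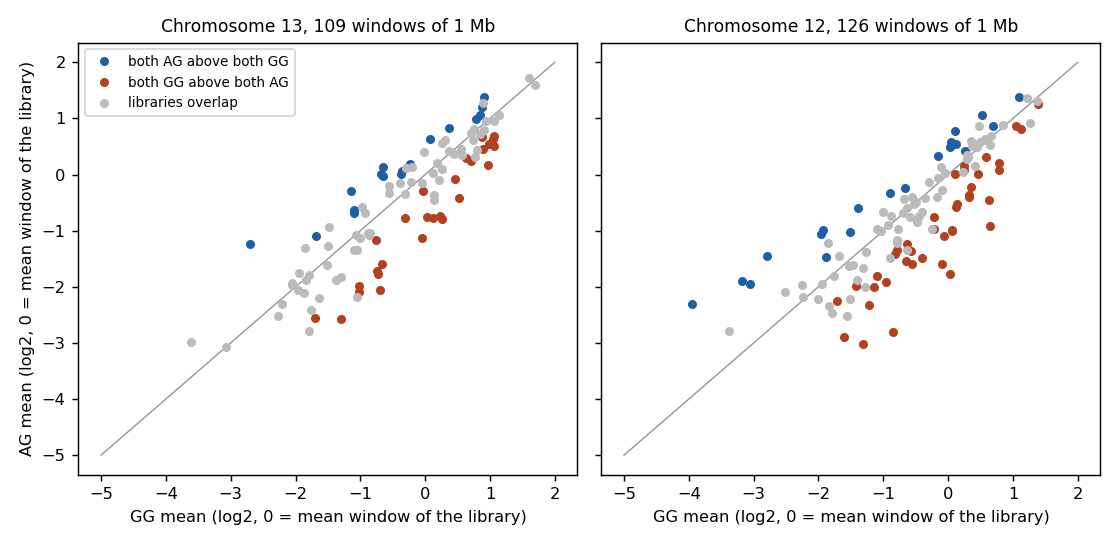
Mean of the AG libraries (vertical) against mean of the GG libraries (horizontal) for each 1 Mb window of chromosomes 13 and 12, as log2 of covered bp plus 1000 relative to the library's mean window. Blue windows have both AG libraries above both GG libraries (17 and 20), red ones both GG above both AG (27 and 40), and the line marks equality.

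The windows with the smallest p on chromosome 12 formed runs of neighbours. Runs were not measured on the other autosomes, so how usual their lengths are was not tested. The longest run with both AG libraries above both GG libraries took 5 windows, from 2000001 to 7000000. Within it, the window from 6000001 had 6.36 and 7.45 kb in the AG replicates, against 3.74 and 2.61 kb in the GG replicates (log2 1.28, SE 0.24, limma adjusted p = 0.145). The window from 4000001 held 10.2 and 16.5 kb in the AG libraries but 8.39 and 8.87 kb in the GG libraries (log2 0.90, SE 0.25, limma adjusted p = 0.182). Its remaining named window, from 5000001, had a limma adjusted p of 0.132. The longest run with both GG libraries above both AG libraries took 4 windows, from 29000001 to 33000000, with a median log2 difference of -1.28. In another of 3 windows, the one from 43000001 had 14.8 and 14.2 kb in the AG replicates, against 55.3 and 59.5 kb in the GG replicates (log2 -1.55, SE 0.26, limma adjusted p = 0.132), and its neighbour from 42000001 held 2.68 and 3.21 kb in the AG libraries but 10.1 and 12.5 kb in the GG libraries (log2 -1.28, limma adjusted p = 0.149). The window from 25000001 held 2.09 and 4.60 kb in the AG libraries but 16.5 and 23.6 kb in the GG libraries, 3.90 times higher in GG (log2 -1.96, limma adjusted p = 0.132). Several of these differences depended on the settings. That from 42000001 was -0.34 in the higher-scoring 50% of lists (limma adjusted p = 0.766) and -0.44 with an offset of 10000 bp. With that offset, the log2 difference was -0.89 from 25000001, 0.67 from 5000001, 0.64 from 6000001 and 0.59 from 4000001. By number of hotspots, that from 5000001 was 0.66.

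On chromosome 13 the smallest adjusted p was 0.157. The window from 17000001 had 19.1 and 22.5 kb in the AG replicates, against 53.7 and 51.5 kb in the GG replicates (log2 -0.95, SE 0.22, limma adjusted p = 0.157). That from 6000001 held 3.37 and 4.54 kb in the AG libraries but 19.6 and 10.3 kb in the GG libraries (log2 -1.28, limma adjusted p = 0.164), and the first window of the chromosome held 13.2 and 11.6 kb in the AG libraries but 40.6 and 30.2 kb in the GG libraries (log2 -1.07, limma adjusted p = 0.172). In the opposite direction, the window from 103000001 held 21.8 and 34.8 kb in the AG libraries but 24.5 and 21.2 kb in the GG libraries (log2 0.62, limma adjusted p = 0.282), so before scaling its libraries overlapped. The window from 33000001 held 23.2 and 22.2 kb in the AG libraries, close to the 22.3 kb of GG replicate 1 and above the 11.2 kb of GG replicate 2 (log2 0.85, limma adjusted p = 0.297), and its log2 difference was 0.44 without GG replicate 2. The window from 98000001 held 10.7 and 12.1 kb in the AG libraries, close to the 10.6 kb of GG replicate 1 and above the 1.83 kb of GG replicate 2 (log2 1.47, SE 0.63, limma adjusted p = 0.309). Its log2 difference was 0.51 without GG replicate 2, 2.42 without GG replicate 1 and 2.46 in the higher-scoring 50% of lists. With the offset of 10000 bp it was 0.73, and that of the window from 6000001 was -0.54. By number of hotspots the window from 17000001 had a log2 difference of -0.60. No run on chromosome 13 was longer than 3 windows. The Pearson correlation of scaled values across windows, which share a library, over 109 windows of chromosome 13 was 0.907 for the AG pair, 0.945 for the GG pair and 0.831 to 0.882 for mixed pairs. Over 126 windows of chromosome 12 it was 0.855 for the AG pair, 0.941 for the GG pair and 0.778 to 0.791 for mixed pairs. All 2682 windows gave 0.890 for the AG pair, 0.891 for the GG pair and 0.775 to 0.813 for mixed pairs.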

How the data were processed

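DNase-seq hotspot lists of 4 libraries were used, AG replicates 1 and 2 and GG replicates 1 and 2. The authors deposited 1 list per library, not pooled, at a false discovery rate of 0.01 per the file names, with a start, an end (other values, in bp) and a score per hotspot. The deposited score has an unstated scale and served to rank and filter. The submitters' processing notes name rheMac8 as the build and deepTools 3.3.1, SAMtools, Bowtie2 and Trim Galore as tools, with no roles. The hotspot caller is not given in the sources used here. Depth is unknown, so no counting interval was given.

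Overlapping or touching hotspots were merged, and a region counted for a library that overlapped it by 1 bp or more. Single values were compared by exact permutation over libraries, and 1 Mb windows (2000 covered bp or more on average) by limma 3.58.1 (R 4.3.3, lmFit and eBayes, trend and robust off), with Benjamini-Hochberg adjustment over all windows. The window step was tested on simulated data, with noise drawn separately for each window, so shifts of a whole chromosome between replicates were not covered. The remaining steps used scipy 1.17.1, pandas 2.3.3, numpy 2.4.6 and matplotlib 3.10.9 under Python 3.11.15.

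Per chromosome, the rule named regions in all 4 libraries by lowest score (3) and width (2), group-only regions by weaker score (3) and covered bp (1), windows by smallest p per direction (3) and by most and least covered (2 each), and the longest empty stretch. Members, lists and tests were chosen with earlier results of these data known. Gene annotation and sequence of rheMac8 were not used here.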

Additional observations from a re-analysis of the deposited data

How the results depend on the processing

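Of 304 values recomputed under alternatives, 241 were counted as unchanged, 46 moved, 9 passed a threshold they had missed and 8 changed sign. Unchanged meant the same sign for tested differences, whatever their p, and a fixed fold limit for counts. For named windows it meant the same sign and the same side of an adjusted p of 0.05. Jaccard indices had to stay within the SD of mixed pairs, and percents in all 4 libraries within their confidence interval. Differences in number and share under a replicate block cannot change and were counted as unchanged. Sign changes came with single libraries or a stricter list. The AG minus GG difference in number on chromosome 13 ran from -1400 to 75 over left-out libraries (75 without GG replicate 1), and in share from -0.898 to 0.360 (0.05 without AG replicate 2, 0.360 without GG replicate 1). The mean log2 ratio of chromosome 13 over 12 ran from -0.0734 to 0.13 (-0.06 without AG replicate 1, -0.0734 without GG replicate 1). Its AG minus GG difference ran from -0.26 to 0.34 (-0.17 without AG replicate 1, -0.26 without GG replicate 2), and was -0.00353 in the higher-scoring 50% of lists. In those 50%, the Jaccard index within AG was 0.194 on chromosome 13 and 0.178 on chromosome 12, and within GG 0.303 and 0.290. AG-only regions numbered 98 and 77, GG-only regions 316 and 298, and 7.94% and 6.60% of regions were in all 4 libraries. Lists all shortened to equal numbers of hotspots gave 0.273 and 0.259 within GG, and 6.39% and 5.26% in all 4. Requiring 50% of a region to be covered gave 1.43% and 1.09%. At equal covered length, chosen after the data were seen, GG-only regions numbered 262 and 239.

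Window counts at an unadjusted p under 0.05 moved most. Higher in AG on chromosome 13, against 0 of 109 as reported, were 4 in the higher-scoring 50%, 4 in shortened lists, 16 of 539 windows of 200 kb, 5 with an offset of 10000 bp, 5 with median scaling, 2 by number of hotspots, 8 with a variance trend and 8 with centring within chromosomes, chosen after the data were seen. Higher in GG on chromosome 13, against 13 of 109, were 34 of 539 windows of 200 kb, a smaller share, 8 with median scaling and 3 by number. On chromosome 12, windows higher in AG, against 8 of 126, numbered 32 of 619 at 200 kb, 5 by number, 4 with the trend and 18 with centring. Windows higher in GG, against 18 of 126, numbered 51 of 619 at 200 kb, and both shares at 200 kb were smaller. Over left-out libraries the counts ran from 0 to 6 (AG) and 1 to 16 (GG) on chromosome 13, and from 2 to 11 (AG) and 9 to 35 (GG) on chromosome 12. Adjusted calls were 5 on chromosome 13 and 9 on chromosome 12 of 218 with the trend, 1 and 6 of 136 with the larger offset, 0 and 2 of 16 with centring, and 0 on both under the other settings. The cause of these shifts was not tested.

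The labels do not say whether equal replicate numbers mark a shared batch. Deviations of same-numbered libraries correlated at -0.08 over 2682 windows, -0.32 on chromosome 13 and 0.06 on chromosome 12. A correlation within 1 chromosome leaves out a shift of the whole chromosome, so it does not bear on the swing described above. The median log2 difference of windows, replicate 1 minus replicate 2, was 0.15 in AG and 0.54 in GG on chromosome 13. On chromosome 12 it was -0.33 and -0.15. A shared batch was not tested, and the numbers were not taken as pairs. With the replicate number as a block, 3 windows of chromosome 13 were higher in AG and 13 in GG. On chromosome 12 the counts were 7 and 15, and adjusted calls were 0 on both. Over all 2682 windows, 460 had a limma unadjusted p under 0.05 in either direction, against 483 without the block. The differences in share, -0.269 and -0.339, cannot change under a block here, since each replicate number occurs once per group. The block is therefore no test of them. Without read counts, depth may set how many hotspots a list holds.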
